A study of Rattus norvegicus with 14 samples.

Results

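The carbonic anhydrases Car2, Car3, Car4, Car5a, Car9, Car12 and Car13 were followed through a rat model of liver carcinogenesis. These 7 genes, of 14497 measured by a probe set with a single gene symbol, were chosen as a set that holds cytosolic, mitochondrial and membrane-bound forms, and their array levels in the same 4 groups were known when they were chosen. Their levels are therefore given as a description without p-values. Each gene had 1 probe set on the array, so no choice among probe sets was needed.

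The animals were male F344 rats, an inbred laboratory strain, in 4 groups of 3. Rapamycin foci and placebo foci came from the Solt-Farber model, in which rats received diethylnitrosamine, a liver carcinogen, at 200 mg/kg on day 1, a 2.5 mg pellet of 2-acetylaminofluorene (AAF, which blocks hepatocyte division) on day 14 and a partial hepatectomy on day 21. A pellet that released rapamycin, an inhibitor of the growth kinase mTOR, at 2.5 mg/kg/day over 21 days, or a placebo pellet, was placed on day 21, and the livers were taken on day 70, after the pellet's release time had ended. Lesions that persisted and stained for placental glutathione S-transferase (GSTP) were captured, so both kinds of foci were selected by that marker. AAF/PH liver came from rats with no diethylnitrosamine, in which the AAF pellet was placed on day 1, partial hepatectomy was done on day 7 and the liver was taken on day 14. Under this regimen oval cells, the progenitor cells of the liver, proliferate. Normal liver came from unmanipulated adults. In both models the AAF pellet had a release time of 14 days. AAF/PH livers were taken within that time, and the foci after it had ended. Foci and AAF/PH liver thus differed in carcinogen, in ongoing AAF release, in time after surgery and in the kind of region captured. These cannot be told apart. All tissue was fixed in formalin, embedded in paraffin and laser-captured.

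Carbonic anhydrases are zinc enzymes that interconvert carbon dioxide and water with bicarbonate and a proton. Car2 is the fast cytosolic form, known from red cells, bile ducts and kidney, and Car3 is a slow cytosolic form that is abundant in muscle, fat and the liver of male rats, where its level follows the male pattern of growth hormone. Car5a sits in liver mitochondria and supplies bicarbonate to carbamoyl phosphate synthetase, the entry step of the urea cycle, and to pyruvate carboxylase. Car4 is anchored to the outer face of the cell membrane, and Car9 and Car12 span the membrane with the catalytic domain outside. The human counterpart of Car9 is a known target of the hypoxia-inducible factor and a tumour marker.

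Values are array intensities on a linear scale, and group levels are geometric means of 3 animals. Differences are log2 differences ± the standard error of a limma fit to all 12 animals. As a measure of dim signal, the 95th percentile of the group means of 53 olfactory receptor genes was taken, and it lay at 26.96 in rapamycin foci, 20.40 in placebo foci, 28.22 in AAF/PH liver and 23.10 in normal liver. These 53 are the genes with a symbol of Olr and a number, and receptors under other symbols were not among them. Rapamycin animal 3, which was run on 3 arrays and averaged to 1 value, stood apart from the other animals. The median intensity of olfactory receptor genes was 9.97 to 10.61 on its arrays, against 6.17 to 7.90 on the other arrays, and the interquartile range of log2 intensity was 1.60 to 1.74 against 2.01 to 2.83. Values for rapamycin foci are therefore given with and without this animal where it moves them by over 1.5 times.

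Car2 was higher in both kinds of foci and in AAF/PH liver than in normal liver. Its intensity was 748, 1059 and 192 in the 3 rapamycin foci, 1117, 906 and 1407 in placebo foci, 557, 165 and 439 in AAF/PH livers, and 74.1, 35.7 and 50.3 in normal livers. Every focus and every AAF/PH liver lay above every normal liver, and every placebo focus lay above every AAF/PH liver. Rapamycin animal 3 lay below the other foci, and its 3 arrays gave 175, 199 and 204. The log2 difference was 4.46 ± 0.54 for placebo foci over normal liver (22.0-fold), 3.39 ± 0.54 for rapamycin foci over normal liver (10.5-fold) and 2.75 ± 0.54 for AAF/PH liver over normal liver (6.72-fold). Without rapamycin animal 3 the difference of rapamycin foci from normal liver was 4.12. Placebo foci exceeded AAF/PH liver by 1.71 ± 0.54 (3.28-fold). These contrasts share the normal livers or the placebo foci and are not independent of each other.

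Red cells and bile duct cells carry Car2, and their markers were read beside it. Of the red cell genes 7 were measured, 4 of them above the dim level. Against normal liver 2 of the 7 fell in placebo foci, 2 in rapamycin foci and 3 in AAF/PH liver, where 5.38%, 4.93% and 12.5% of all genes fell. Their median log2 difference was -0.15 in placebo foci, -0.09 in rapamycin foci and -0.14 in AAF/PH liver, so the summed intensity below rests on the bright globins. The beta globin Hbb fell to 298 in placebo foci, against 788 in normal liver (limma, log2 difference -1.40 ± 0.26, adjusted p = 0.003177). Its level was 312 in rapamycin foci and 308 in AAF/PH liver, and its call in rapamycin foci was lost without normal animal 1 or 3 (adjusted p = 0.05959 and 0.05366). The summed red cell intensity was 548 to 652 in rapamycin foci, 557 to 634 in placebo foci, 454 to 542 in AAF/PH livers and 1055 to 1597 in normal livers. It was lower than in normal liver in the groups with higher Car2, but among those groups it did not run opposite to Car2: placebo foci exceeded AAF/PH livers in both. The summed intensity of 7 biliary genes was 219 to 318 in rapamycin foci, 282 to 515 in placebo foci, 280 to 505 in AAF/PH livers and 150 to 175 in normal livers. It was higher than in normal liver where Car2 was higher, but AAF/PH livers overlapped placebo foci in it while their Car2 was lower without overlap. Krt19, a duct keratin, rose in placebo foci (117 against 21.3 in normal liver, 2.45 ± 0.45, adjusted p = 0.003346) and in AAF/PH liver (82.8 against 21.3, 1.96 ± 0.45, adjusted p = 0.00713). Its level in normal liver was under the dim level. In all, 2 of the 7 biliary genes rose in placebo foci, 1 in rapamycin foci and 5 in AAF/PH liver, beside 2.84%, 1.6% and 7.54% of all genes, and none fell. Without normal animal 3 or placebo animal 3 the count in placebo foci was 1, and without rapamycin animal 3 the count in rapamycin foci was 2. The 1 in rapamycin foci was Krt19 (72.5, adjusted p = 0.03196), and its call was lost without normal animal 1, 2 or 3 or rapamycin animal 1 or 2, with adjusted p of 0.05357 to 0.164. None was listed at 0, and 6 of the 7 passed the dim level in at least 1 group. The part of red cells and of duct cells in the Car2 values was not tested. In captured tissue, more cells of a type and more RNA per cell cannot be told apart.

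**Figure D1:**
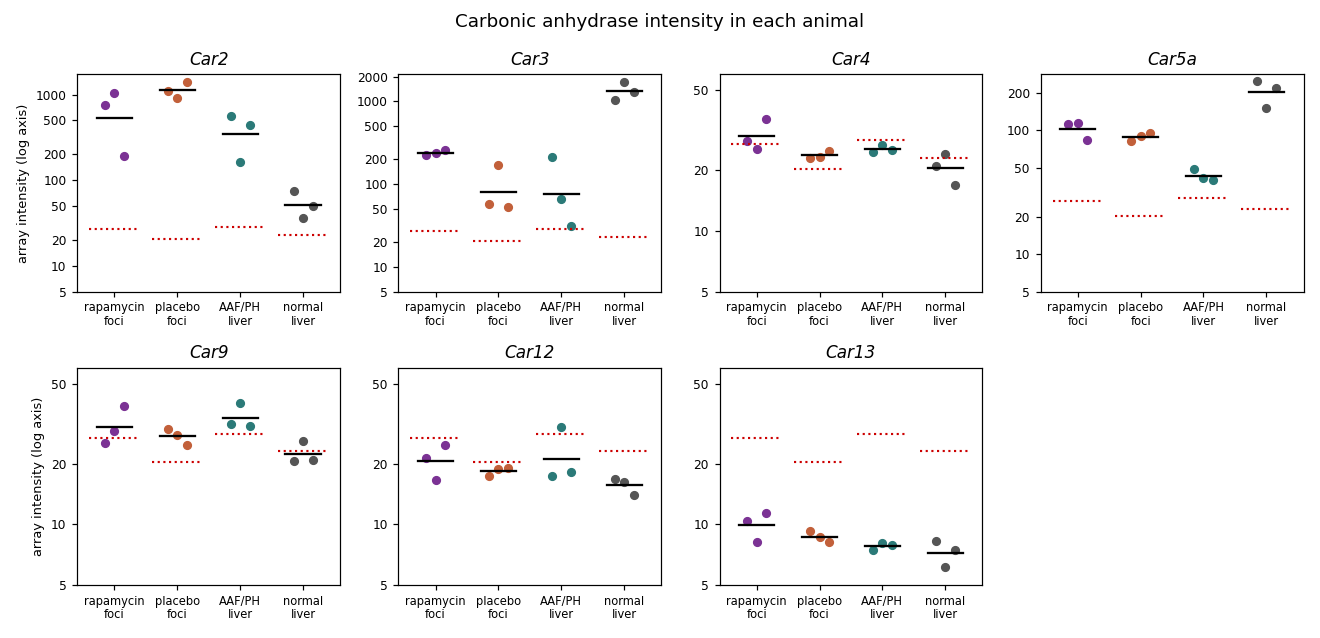
Array intensity of the 7 carbonic anhydrases in each animal on a logarithmic axis, with rapamycin foci, placebo foci, AAF/PH liver and normal liver from left to right. Points are animals, black bars are geometric means, and the dotted red line is the 95th percentile of 53 olfactory receptor genes in that group. Car2 stands above its normal values in all 9 animals of the other groups and Car3 below them, while Car12 and Car13 have group means under the dotted line in all 4 groups.

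Car3 ran the other way. Its intensity was 225, 240.0 and 257 in rapamycin foci, 56.9, 171 and 53.1 in placebo foci, 211, 66.9 and 30.9 in AAF/PH livers, and 1043, 1716 and 1302 in normal livers. All 9 animals of the other groups lay below the lowest normal liver. The log2 difference from normal liver was -4.05 ± 0.54 in placebo foci (16.5-fold lower), -2.47 ± 0.54 in rapamycin foci (5.52-fold lower) and -4.13 ± 0.54 in AAF/PH liver (17.5-fold lower). Single AAF/PH animals moved that last value, to -4.87 without animal 1 and -3.48 without animal 3. Placebo foci and AAF/PH livers overlapped and differed by 0.08 ± 0.54, by 0.82 without AAF/PH animal 1 and by -0.57 without AAF/PH animal 3. The 3 AAF/PH livers spanned a wide range, and the animal with the highest Car3 was also the one with the highest Car2.

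Rapamycin foci held more Car3 than placebo foci, by a log2 difference of 1.58 ± 0.54 (2.99-fold), and the lowest rapamycin focus, at 225, lay above the highest placebo focus, at 171. Car3 did not set rapamycin animal 3 apart: its 3 arrays gave 226, 287 and 261, and without it the difference was 1.53. Both groups stayed below normal liver. Car2 differed from placebo foci by -1.07 ± 0.54 in rapamycin foci, with overlapping animals, and by -0.34 without rapamycin animal 3.

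The balance of Car2 to Car3 within each animal was expressed as the log2 difference of the 2 probe sets relative to its mean in normal liver, which removes the unequal brightness of the probes. It was 6.43, 6.84 and 4.28 in rapamycin foci, 8.995, 7.10 and 9.43 in placebo foci, 6.10, 6.003 and 8.52 in AAF/PH livers, and 0.88, -0.89 and 0.00 in normal livers. Every placebo focus stood above every rapamycin focus on this scale, and AAF/PH livers overlapped both. Car2 and Car3 are neighbours on rat chromosome 2 in the GRCr8 assembly, in the gene order Car2, Car3, Car1, Car13, so genes next to each other there moved in opposite directions.

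**Figure D2:**
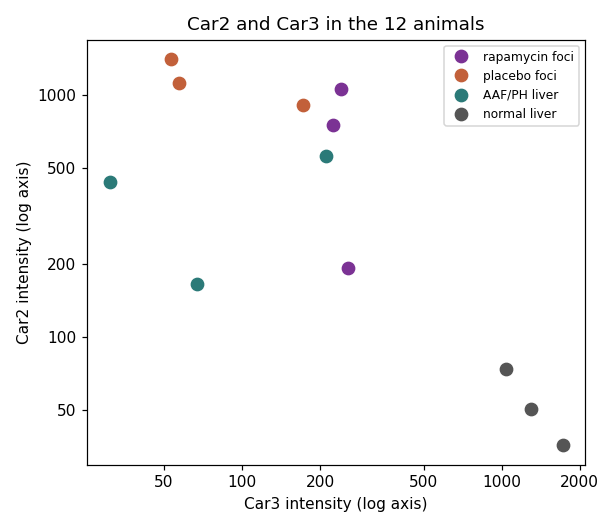
Car2 intensity against Car3 intensity in each of the 12 animals, both on logarithmic axes, coloured by group. Normal livers lie at high Car3 and low Car2, placebo foci at the opposite corner, and rapamycin animal 3 lies lowest in Car2 among the foci.

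Car3 is a male-pattern gene of rat liver, and 6 other male-biased hepatocyte genes were read beside it. Against normal liver, all 6 fell in placebo foci, where 5.38% of all genes fell, 5 fell in rapamycin foci, where 4.93% did, and all 6 fell in AAF/PH liver, where 12.5% did. In both directions together limma called 8.22% of all genes in placebo foci, 6.53% in rapamycin foci and 20% in AAF/PH liver against normal liver, and 4.19% in placebo foci against AAF/PH liver. Their median log2 difference was -2.66 in placebo foci, -1.74 in rapamycin foci and -3.72 in AAF/PH liver, beside medians over all genes of 0.04, 0.07 and 0.12 in that order. Cyp2c11, the main male-specific cytochrome P450, had 352, 267 and 159 in rapamycin foci, 52.0, 230.01 and 60.8 in placebo foci, 14.5, 13.6 and 12.03 in AAF/PH livers and 1729, 1999 and 1455 in normal livers. It fell in rapamycin foci (log2 difference -2.80, adjusted p = 0.002106), in placebo foci (-4.25, adjusted p = 3.37e-05) and in AAF/PH liver (-7.00, adjusted p = 3.288e-07). Its values in AAF/PH livers were under the dim level, and the difference there ranged from -7.20 to -5.88 over the alternatives. In rapamycin foci the calls of Cyp3a2 and Cyp3a18 were lost when normal animal 1, 2 or 3 was left out (adjusted p of 0.08515 to 0.173 for Cyp3a2 and 0.06231 to 0.08515 for Cyp3a18), and that of Cyp3a2 without rapamycin animal 3 (0.07761). Cyp2a2, a male-specific steroid hydroxylase, had geometric means of 221 in rapamycin foci, 116 in placebo foci, 35.0 in AAF/PH liver and 682 in normal liver.

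None of these 6 genes was called between rapamycin and placebo foci, where limma called 0 of 14497 genes, 483 had an unadjusted p under 0.05 and the smallest adjusted p was 0.5116. Of the 6, 4 had an unadjusted p under 0.05, and their median difference there was 0.88. Without rapamycin animal 3, limma called 3 genes, all higher in rapamycin foci, and Cyp2a2 was among them (1.38, adjusted p = 0.01466). The others were Cyp3a23-3a1 (1.86, adjusted p = 0.0213) and Inhbe (1.17, adjusted p = 0.0213), which were named after their values were seen, as were the next 2. Without placebo animal 3, Cyp4a3 (1.55, adjusted p = 0.04591) and Dbp (-1.67, adjusted p = 0.02113) were called.

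Fat and muscle cells hold much Car3, and 8 of their genes summed to 212 to 300.5 in rapamycin foci, 200 to 248 in placebo foci, 254 to 285 in AAF/PH livers and 173 to 204 in normal livers. Only 4 of these 8 genes passed the dim level in at least 1 group. The sums are thus partly dim signal, and a fall of the dim genes could hardly be seen. None of the 8 fell, while 1 rose in placebo foci and 2 in AAF/PH liver, beside 2.84% and 7.54% of all genes. The second gene in AAF/PH liver was Acta1, a muscle actin (0.73, adjusted p = 0.04921), and its call was lost when any single AAF/PH or normal animal was left out, with adjusted p of 0.07396 to 0.1561. Of 9 pericentral hepatocyte genes, 5 fell and 1 rose in each kind of foci (none rose in rapamycin foci without normal animal 1), and 3 fell and 1 rose in AAF/PH liver. The gene that rose in each of these groups was Rhbg. Of all genes, 5.38% fell in placebo foci, 4.93% in rapamycin foci and 12.5% in AAF/PH liver, and 2.84%, 1.6% and 7.54% rose. The ornithine aminotransferase gene Oat fell to 45.2 in placebo foci and 114 in AAF/PH liver, against 360 in normal liver (adjusted p = 1.5e-05 and 0.0007969). The summed hepatocyte markers were 20184 to 30547 in rapamycin foci, 23009 to 27443 in placebo foci, 17064 to 19706 in AAF/PH livers and 30045 to 32991 in normal livers, so the AAF/PH livers had the lowest sums. Of these 7 genes 3 fell in placebo foci, none in rapamycin foci (2 without rapamycin animal 2) and 5 in AAF/PH liver against normal liver. The shares of all genes that fell were 5.38%, 4.93% and 12.5%. The medians of the 7 genes were -0.66, -0.43 and -0.86 in that order. Matrix and stellate cell genes moved with AAF/PH liver: 9 of them summed to 1713 to 4522 there and 606 to 811 in normal livers. Of the 9, 7 rose, where 7.54% of all genes rose. In placebo foci and AAF/PH liver the hepatocyte markers that were called thus fell where Car3 was lower, and the part of cell makeup in the Car3 values was not tested.

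Car5a, the mitochondrial form, was lower in foci and AAF/PH liver than in normal liver. Its promoter is shown because a 5-base core of hypoxia response elements, ACGTG on either strand (CACGT when read in reverse), was searched in the promoters of the members, and Car5a had no match. The sequence is from RefSeq (GRCr8, chr19:66911437-66911736, minus strand) and runs 5′ to 3′ from 250 bases before to 50 bases after the transcript start. Capitals mark matches in this and in the other promoters below.
Car5a: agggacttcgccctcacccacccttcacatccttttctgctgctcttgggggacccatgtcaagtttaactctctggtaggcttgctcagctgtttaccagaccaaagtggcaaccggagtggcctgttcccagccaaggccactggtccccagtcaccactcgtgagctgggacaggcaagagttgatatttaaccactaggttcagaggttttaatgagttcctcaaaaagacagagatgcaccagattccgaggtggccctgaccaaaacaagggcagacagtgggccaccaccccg
Its intensity was 113, 115 and 83.1 in rapamycin foci, 82.5, 89.6 and 94.4 in placebo foci, 48.9, 41.0 and 39.8 in AAF/PH livers, and 251, 151 and 219 in normal livers. No animal of the other groups overlapped the normal livers, and every placebo focus lay above every AAF/PH liver. The log2 difference from normal liver was -1.19 ± 0.21 in placebo foci (2.28-fold lower), -0.98 ± 0.21 in rapamycin foci (1.97-fold lower) and -2.24 ± 0.21 in AAF/PH liver (4.71-fold lower). Placebo foci exceeded AAF/PH liver by 1.04 ± 0.21 (2.06-fold). Rapamycin and placebo foci overlapped and differed by 0.21 ± 0.21. Car5a was thus lowest in AAF/PH liver and intermediate in the foci.

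The enzymes that use the bicarbonate made in the mitochondrion and cytosol were read beside Car5a. Of 9 such genes, 7 fell and none rose in AAF/PH liver against normal liver, where 12.5% of all genes fell, and their median log2 difference was -1.49, beside 0.12 over all genes. Pc, the pyruvate carboxylase that starts gluconeogenesis from pyruvate, had 102, 101 and 88.3 in AAF/PH livers and 518, 503 and 509 in normal livers, a fall of 2.39 ± 0.25 on the log2 scale (adjusted p = 1.435e-05). The acetyl-CoA carboxylases, which make malonyl-CoA, fell with it. Acacb, the mitochondrial form, had a level of 19.1 in AAF/PH liver and 140 in normal liver (-2.88 ± 0.34, adjusted p = 4.526e-05), and Acaca, the cytosolic form of fatty acid synthesis, 29.5 in AAF/PH liver and 175 in normal liver (-2.57 ± 0.37, adjusted p = 0.0002314). The Acacb level in AAF/PH liver was under the dim level, and its difference ranged from -3.07 to -2.15 over the alternatives. Mccc1, a subunit of the leucine-degrading methylcrotonyl-CoA carboxylase, fell by 1.49 (adjusted p = 0.001356). Cps1, the carbamoyl phosphate synthetase, did not pass the test and had 2308, 2006 and 2164 in AAF/PH livers against 2382, 1619 and 2182 in normal livers (0.08, adjusted p = 0.8477).

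In the foci fewer of these enzymes passed the test. Placebo foci had 2 of 9 lower and none higher than normal liver, where 5.38% of all genes fell. Mccc1 fell by 1.13 ± 0.27 (adjusted p = 0.01653), a call lost when normal animal 1 or 3, or placebo animal 1 or 2, was left out (adjusted p = 0.1061, 0.08019, 0.08614 and 0.07524). Cps1 had 1003, 860 and 1192 in placebo foci against 2382, 1619 and 2182 in normal livers. Its fall of 1.01 ± 0.30 stood at adjusted p = 0.04899 and was lost in 8 of 16 alternatives, including the omission of any placebo animal or of normal animal 1 or 3, with adjusted p up to 0.2168. Rapamycin foci had Pc (-0.93, adjusted p = 0.03792) and Mccc1 (-0.97, adjusted p = 0.04642) lower than normal liver, and without rapamycin animal 2 the count was 4 of 9. Each of these was also lost in 8 of 16 alternatives, and without rapamycin animal 3 the values were -0.57 for Pc (adjusted p = 0.05511) and -0.75 for Mccc1 (adjusted p = 0.09296). Without normal animal 1 the adjusted p was 0.1518 for Pc and 0.2327 for Mccc1, and without normal animal 3 it was 0.1303 and 0.1723. Pc was also lost without normal animal 2 (adjusted p = 0.07148), and Mccc1 without rapamycin animal 1 (adjusted p = 0.05046).

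Against AAF/PH liver, placebo foci had 3 of the 9 enzymes higher and none lower, where 2.62% of all genes rose. Acacb had geometric means of 101 in placebo foci and 19.1 in AAF/PH liver (2.41 ± 0.34, adjusted p = 0.0007446), and Pc 297 in placebo foci and 97.0 in AAF/PH liver (1.62 ± 0.25, adjusted p = 0.001338). With Acacb dim in AAF/PH liver, its difference ranged from 1.74 to 2.56 over the alternatives. Acaca rose by 1.57 ± 0.37 (adjusted p = 0.02751), but this call was lost when any single placebo or AAF/PH animal was left out, with adjusted p of 0.06234 to 0.1297. None of the 9 was called between rapamycin and placebo foci.

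**Figure D3:**
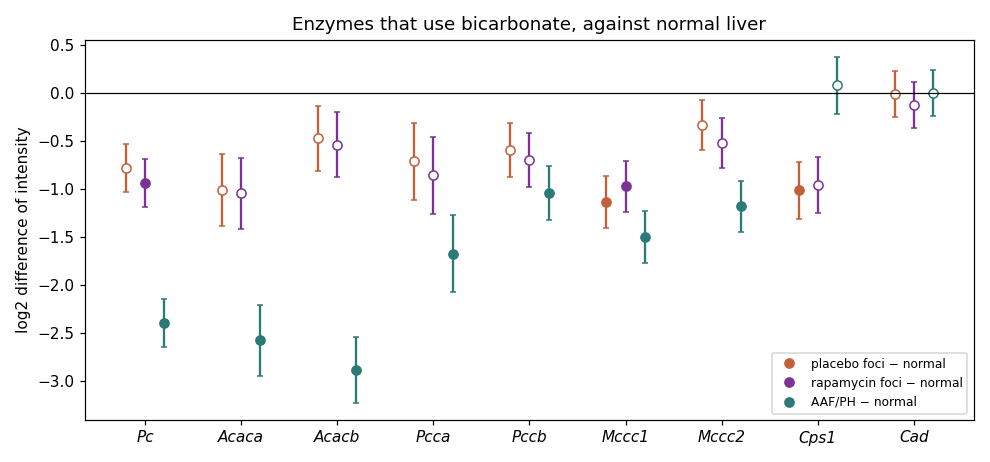
Log2 difference ± standard error of the fit for the 9 bicarbonate-using enzymes in both kinds of foci and in AAF/PH liver, each minus normal liver. Filled points passed an adjusted p under 0.05. In AAF/PH liver against normal liver 7 of 9 are filled and negative, while Cps1 lies at 0.08.

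Car4, Car9, Car12 and Car13 were measured near or below the dim level. Car9 had 25.3, 29.1 and 38.5 in rapamycin foci, 29.6, 27.9 and 24.8 in placebo foci, 31.5, 40.2 and 30.6 in AAF/PH livers, and 20.6, 25.8 and 20.9 in normal livers. Its group mean passed the dim level in both kinds of foci and in AAF/PH liver. AAF/PH livers lay above normal livers without overlap (0.60 ± 0.19, 1.52-fold) and above placebo foci without overlap (the difference of placebo foci from AAF/PH liver was -0.31 ± 0.19). Both kinds of foci overlapped normal liver, with differences of 0.29 ± 0.19 in placebo foci and 0.45 ± 0.19 in rapamycin foci.

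Car12 had group means of 20.7 in rapamycin foci, 18.4 in placebo foci, 21.2 in AAF/PH liver and 15.6 in normal liver, all under the dim level. AAF/PH animal 2, at 30.3, was its highest value. Placebo foci and AAF/PH livers lay above normal livers without overlap, by 0.24 ± 0.22 and 0.44 ± 0.22. Car4 had group means of 29.5 in rapamycin foci, 23.7 in placebo foci, 25.4 in AAF/PH liver and 20.5 in normal liver and passed the dim level in the foci only. Rapamycin foci lay above placebo foci by 0.32 ± 0.18 and above normal liver by 0.53 ± 0.18, both without overlap, and rapamycin animal 3 had the highest value, 36.1. Capillary endothelium carries Car4, and 6 endothelial genes summed to 260 to 418 in rapamycin foci, 346 to 455 in placebo foci, 347 to 493 in AAF/PH livers and 491 to 522 in normal livers. The part of endothelium in the Car4 values was not tested. Car13, a cytosolic form, had group means of 9.90 in rapamycin foci, 8.68 in placebo foci, 7.79 in AAF/PH liver and 7.25 in normal liver, below the dim level in every group.

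Over the 53 olfactory receptor genes the median log2 difference was itself above 0, at 0.07 in placebo foci, 0.16 in rapamycin foci and 0.21 in AAF/PH liver against normal liver, and 0.12 in rapamycin against placebo foci. The differences of Car4, Car9, Car12 and Car13, between 0.10 and 0.60 in these comparisons, stand beside those shifts, whose part in them was not tested. When each array was centred on its median, the median over all genes moved by more than 0.1, to -0.08 in AAF/PH liver, against 0.12 without centring, and the difference of Car13 in AAF/PH liver turned to -0.09.

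The promoters of Car9 and Car12 are shown because both genes are known in human cells as hypoxia-induced, and both held the ACGTG core. Car9 (RefSeq, GRCr8, chr5:62558774-62559073, plus strand) had 1 match, in the reverse orientation, at bases 2 to 6 after the start. Car12 (chr8:76169565-76169864, plus strand) had 2 matches, at bases 11 to 15 and 35 to 39 after the start.
Car9: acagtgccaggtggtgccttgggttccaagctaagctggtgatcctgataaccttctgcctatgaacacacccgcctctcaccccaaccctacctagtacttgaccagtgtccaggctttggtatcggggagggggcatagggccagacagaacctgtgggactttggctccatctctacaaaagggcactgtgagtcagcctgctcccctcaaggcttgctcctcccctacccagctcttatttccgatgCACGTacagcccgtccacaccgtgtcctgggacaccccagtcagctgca
Car12: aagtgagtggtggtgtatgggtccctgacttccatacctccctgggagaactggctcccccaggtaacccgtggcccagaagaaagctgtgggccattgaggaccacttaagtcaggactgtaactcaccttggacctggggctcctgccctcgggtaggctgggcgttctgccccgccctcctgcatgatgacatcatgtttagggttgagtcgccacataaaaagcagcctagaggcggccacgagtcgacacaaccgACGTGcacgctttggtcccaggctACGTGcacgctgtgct
Car4, on chromosome 10, also had 2 matches, both before the start. The motif occurred in 6444 of 33469 rat promoters of this length (19.3%), so a match is common, and it is not evidence of a bound factor. Of the 7 members, 4 had a promoter entry.

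Other hypoxia-induced genes moved in both directions. Of 19 measured, 3 rose and 1 fell in placebo foci, 2 rose in rapamycin foci, and 2 rose and 5 fell in AAF/PH liver against normal liver. The shares of all genes that rose were 2.84%, 1.6% and 7.54%, and of those that fell 5.38%, 4.93% and 12.5%. These counts turned on single animals. In rapamycin foci the number higher was 0 without normal animal 1 or 3 and 1 without normal animal 2 or rapamycin animal 1, and the number lower was 2 without normal animal 2, 1 without rapamycin animal 1 and 5 without rapamycin animal 2. In AAF/PH liver the number lower was 2 without AAF/PH animal 1 or normal animal 1 and 3 without AAF/PH animal 2 or normal animal 3. In placebo foci the number higher ran from 2 to 3 and the number lower from 0 to 2 when 1 animal was left out. The number lower was 2 without normal animal 2 or placebo animal 3. The other gene called in rapamycin foci, Pfkfb3, a regulator of glycolysis (0.61, adjusted p = 0.03695), lost its call in 9 of 16 alternatives, with adjusted p up to 0.1787. In placebo foci the call of Pfkfb3 was lost without normal animal 3 or placebo animal 2 (adjusted p = 0.09361 and 0.06284). Egln3, a prolyl hydroxylase that marks the hypoxia-inducible factor for degradation, had 32.0, 31.1 and 15.3 in rapamycin foci, 51.5, 33.1 and 51.6 in placebo foci, 41.8, 35.9 and 48.9 in AAF/PH livers, and 11.02, 9.88 and 10.5 in normal livers. It rose by 2.09 ± 0.27 in placebo foci (adjusted p = 0.0002134) and by 2.00 ± 0.27 in AAF/PH liver (adjusted p = 0.0001222). Its values in normal livers were under the dim level. Over the alternatives the rise ranged from 1.20 to 2.30 in placebo foci and from 1.13 to 2.11 in AAF/PH liver. In rapamycin foci it rose by 1.25 ± 0.27 (adjusted p = 0.01396), a call lost without normal animal 1 or 3 (adjusted p = 0.06072 and 0.06219). Ndrg1, a stress-induced gene, rose in placebo foci (108 against 45.5 in normal liver, adjusted p = 0.006563). Pdk1, a kinase that shuts off pyruvate dehydrogenase, fell in AAF/PH liver (54.1 against 183, adjusted p = 0.002654). The lactate dehydrogenase gene Ldha fell in AAF/PH liver (955 against 2975, -1.64 ± 0.39, adjusted p = 0.008769). It also fell in placebo foci (984 against 2975, -1.60 ± 0.39, adjusted p = 0.01948), a call lost without placebo animal 1 or 2 or normal animal 1 or 3, with adjusted p of 0.08929 to 0.09678.

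Of the 9 other genes of the family, 8 were measured. By limma none passed the test in either kind of foci against normal liver, where 0 of 8 in placebo foci and 1 of 8 in rapamycin foci had an unadjusted p under 0.05. Of all genes, 8.22% passed in placebo foci and 6.53% in rapamycin foci. Car8, a relative that binds no zinc and has no catalytic activity, had 104.5, 99.97 and 37.1 in rapamycin foci, 93.2, 85.9 and 94.1 in placebo foci, 44.4, 52.5 and 50.2 in AAF/PH livers, and 132, 136 and 120 in normal livers. It fell in AAF/PH liver (-1.40 ± 0.30, adjusted p = 0.004275), and rapamycin animal 3 lay below every AAF/PH liver. Car14, a membrane-spanning form, had 70.7, 85.0 and 39.8 in rapamycin foci, 70.9, 61.3 and 78.6 in placebo foci, 45.0, 27.4 and 33.1 in AAF/PH livers, and 90.7, 80.6 and 93.6 in normal livers. It fell in AAF/PH liver (-1.36 ± 0.26, adjusted p = 0.001906). Of the 8 genes, 2 fell there, where 12.5% of all genes fell. The median over the 8 genes there was -0.25, beside 0.12 over all genes. Placebo foci exceeded AAF/PH liver in Car14 by 1.02 ± 0.26 (adjusted p = 0.03669), a call lost in 8 of 16 alternatives. Among these, the adjusted p was 0.1784 without AAF/PH animal 2, 0.1297 without AAF/PH animal 3, and 0.1233, 0.06933 and 0.1414 without placebo animals 1, 2 and 3.

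**Figure D4:**
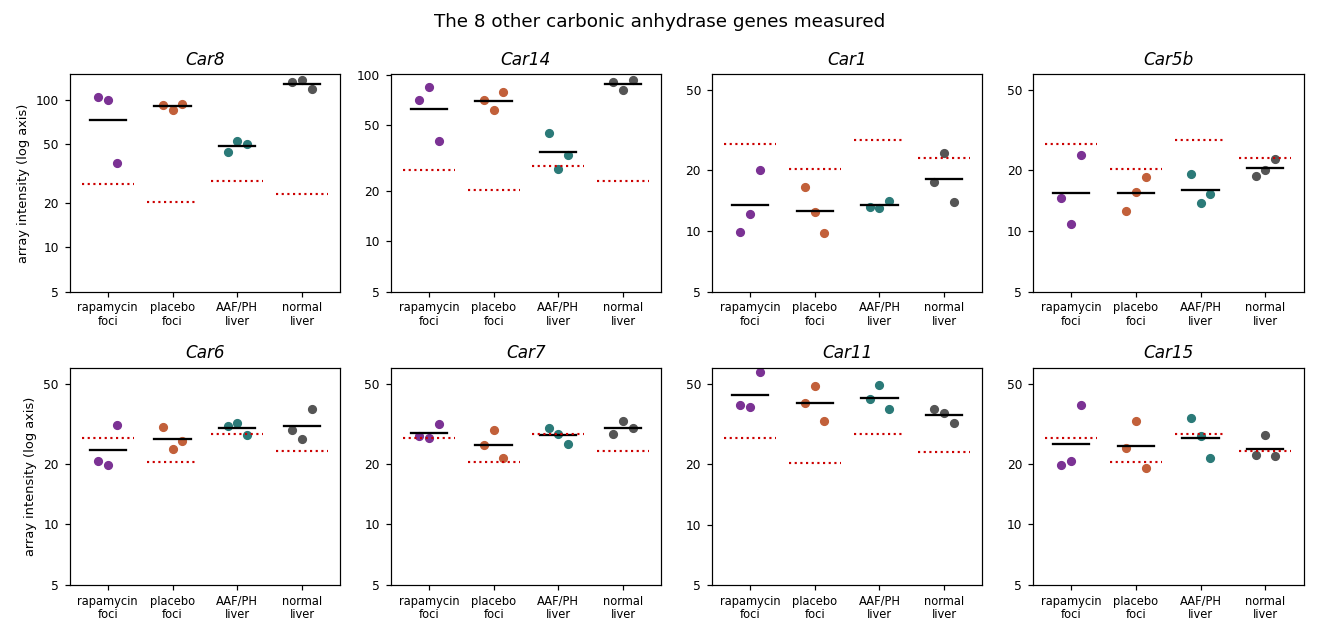
Array intensity of the other measured carbonic anhydrases in each animal on a logarithmic axis, with rapamycin foci, placebo foci, AAF/PH liver and normal liver from left to right, drawn as for the 7 members. Car8 and Car14 lie lower in AAF/PH liver than in normal liver, and rapamycin animal 3 lies near the AAF/PH livers in both.

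Bicarbonate and proton transporters were read next, and many of them were dim. Of 15 bicarbonate transporters 5 passed the dim level in at least 1 group, and of 8 proton and lactate exporters 4 did. A gene under that level could hardly be called, so the counts below say little about the dim ones. Of 15 bicarbonate transporters, 1 rose in AAF/PH liver against normal liver and none was called in any other comparison, where 0 to 2 had an unadjusted p under 0.05. Without rapamycin animal 2, 1 of the 15 rose in rapamycin foci. The gene that rose in AAF/PH liver was Cftr, the chloride and bicarbonate channel of bile duct cells. Its level was 13.2 there against 7.53 in normal liver, both dim (0.81 ± 0.18, adjusted p = 0.006425). Of 8 proton and lactate exporters, 1 fell in each kind of foci and 2 fell and 1 rose in AAF/PH liver against normal liver, and 1 rose in placebo foci against AAF/PH liver. Of all genes, 5.38% fell in placebo foci, 4.93% in rapamycin foci and 12.5% in AAF/PH liver, where 7.54% rose. In placebo foci against AAF/PH liver 2.62% of all genes rose. Slc16a1, the monocarboxylate transporter MCT1, fell to 91.9 in AAF/PH liver, against 280 in normal liver (-1.60 ± 0.29, adjusted p = 0.001353). It fell to 120 in placebo foci (-1.22 ± 0.29, adjusted p = 0.01587), a call lost without normal animal 1 or 3 or placebo animal 1 or 2, with adjusted p of 0.06764 to 0.08028. In rapamycin foci the difference was -1.04 ± 0.29 (adjusted p = 0.0457) and -0.63 without rapamycin animal 3 (adjusted p = 0.07011). That call was also lost without normal animal 1, 2 or 3 (adjusted p = 0.1686, 0.06155 and 0.1747). Slc16a7, its relative MCT2, fell in AAF/PH liver (39.7 against 142, -1.84 ± 0.32, adjusted p = 0.001007). It was the gene higher in placebo foci than in AAF/PH liver (99.7 against 39.7, 1.33 ± 0.32, adjusted p = 0.02965), a call lost in 8 of 16 alternatives, among them the omission of any AAF/PH animal or of placebo animal 1 or 3 (adjusted p of 0.07681 to 0.1384). Slc16a3, the lactate exporter MCT4, was the gene that rose in AAF/PH liver (34.6 against 20.05, 0.79 ± 0.25, adjusted p = 0.03592), a call lost in 9 of 16 alternatives, among them the omission of any AAF/PH animal or of normal animal 1 or 3 (adjusted p of 0.06563 to 0.1474). Its level in normal liver was under the dim level.

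Counted over the 7 members, 2 lay higher and 2 lower than normal liver without overlap in placebo foci (Car2 and Car12, Car3 and Car5a), where 30.5% of all genes did not overlap, 14.8% higher and 15.7% lower. In rapamycin foci 2 lay higher and 2 lower (Car2 and Car4, Car3 and Car5a), beside 29.7% of all genes, 15.1% higher and 14.6% lower. In AAF/PH liver 4 lay higher and 2 lower, beside 49.6%, 27.4% higher and 22.2% lower. Placebo foci had 3 members above and 1 below AAF/PH liver, beside 25.7%, 13% higher and 12.8% lower. Rapamycin foci had 2 above placebo foci (Car3 and Car4) and none below, beside 6.04%, 3.62% higher and 2.41% lower. Since the members were chosen with these values known, nothing is read from the counts. The median member difference from normal liver was 0.24 for placebo foci, 0.45 for rapamycin foci and 0.31 for AAF/PH liver, which hides the opposite signs of Car2 and of Car3 and Car5a.

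**Figure D5:**
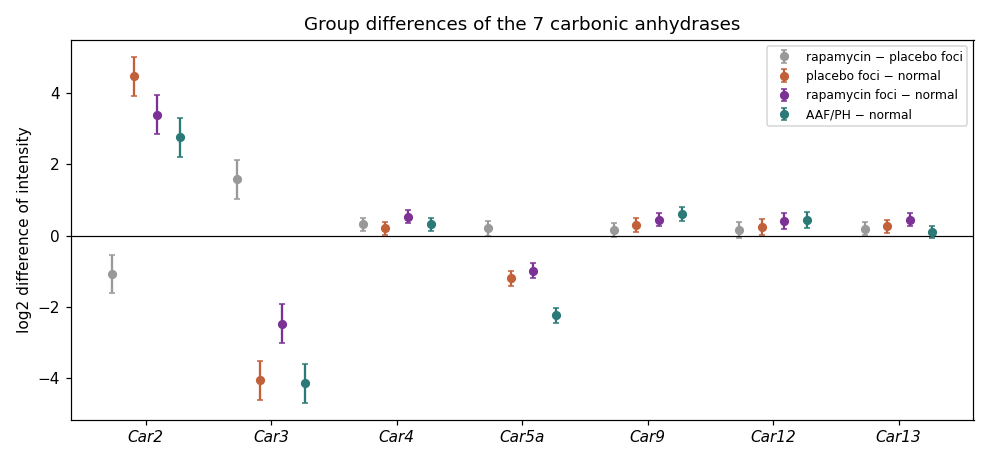
Log2 difference ± standard error of the fit for the 7 members, for rapamycin against placebo foci and for each other group against normal liver. Car2 lies at 4.46, 3.39 and 2.75 and Car3 at -4.05, -2.47 and -4.13 against normal liver, for placebo foci first, then rapamycin foci, then AAF/PH liver, while Car4, Car9, Car12 and Car13 lie within 0.60 of 0.

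The genes whose log2 values followed each member most closely were found by Pearson's r over the 12 animals among 14283 genes. The 12 points share 4 groups, so r mostly reflects differences between groups. For Car2 they were Gsta3 (r = 0.967), a glutathione S-transferase, Tubb6 (0.966), a beta tubulin, Serinc2 (0.964), Nup210 (0.960), a nuclear pore protein, and Gpx2 (0.955), a glutathione peroxidase. For Car3 they were Dhrs7l1 (0.958), Acnat2 (0.958), Hao2 (0.947), a peroxisomal hydroxyacid oxidase, the male-biased Cyp3a2 (0.939) and Vtn (0.937), which encodes vitronectin. For Car5a the closest was Gckr (0.991), the glucokinase regulator. The closest were Mak for Car4 (0.944), Kcnj12 for Car9 (0.984), Galnt18 for Car12 (0.937) and Tktl2 for Car13 (0.894), genes that followed members measured near or below the dim level.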

How the data were processed

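Total RNA from laser-captured, formalin-fixed liver was measured on Affymetrix Rat Gene ST 1.0 arrays after amplification from 150 ng, per the labels' protocols. The authors deposited 1 table of 28826 probe sets in 14 arrays, whose values are linear intensity between 2.143 and 14037.8. The submitters' processing notes list Partek 6.6 and RMA without saying what each did. The sources used here do not give their background setting. A gene's probe set of highest mean was taken among the 15209 with 1 symbol in the platform annotation, which left 14497 genes. Probe sets with several symbols (306) or none (13311) were not used.

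Log2 was taken without a pseudocount. The 3 arrays of rapamycin animal 3 (a pair from 1 RNA and a second capture) were averaged on that scale. Each group had 3 animals, whose number limits the precision. The p-values set a group difference against the spread among animals within groups, pooled over the 4 groups and moderated over genes. A single limma 3.58.1 fit (lmFit, eBayes, 2-sided, R 4.3.3) of 4 group means had degrees of freedom of 8 (residual) and 6.38 (prior). Benjamini-Hochberg adjustment ran over all genes, and calls were made under 0.05. The fit was tested on simulated data. Figures were drawn with matplotlib 3.10.9.

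The members and gene lists were chosen with earlier results of these data known. Of each list, up to 4 called genes of smallest p are named, and for likeness 5 genes for Car2 and Car3 and 1 for the others. Genes whose symbols begin with LOC, RGD, Olr, Vom, Mir or Taar were passed over, and olfactory receptors under other symbols were not. Replicate numbers were not treated as pairs. Between deviations from the group means, r ran from -0.68 to 0.38 in 18 same-numbered pairs, with 7 over 0.1. In differently numbered pairs it ran from -0.48 to 0.63. Deviations within a group of 3 animals are tied to each other, so these values cannot exclude pairing. Alternatives were quantile normalization, median centring, 16 added before log2, no dim genes, other averages of rapamycin animal 3 or of probe sets, array quality weights, only the groups compared, a replicate block and the omission of each animal. Promoters came from RefSeq (GRCr8).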

Additional observations from a re-analysis of the deposited data

How the results depend on the processing

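Directions of Car2, Car3 and Car5a against normal liver held in all alternatives. Of 550 alternative member differences 535 moved by less than the spread between animals (1 SD). Many of the 550 could not move. With 1 probe set per member, the mean of probe sets repeated the value of the main fit. Fits of only the groups compared and the replicate block left the differences of group means unchanged. Other averages of rapamycin animal 3 could not change comparisons without rapamycin foci. The count of 535 is therefore not a measure of robustness. Quantile normalization gave Car5a -1.92 in AAF/PH liver, -0.92 in placebo foci and -0.64 in rapamycin foci against normal liver, Car13 -0.092 in AAF/PH liver and 0.26 in rapamycin foci, and Car4 0.12 in AAF/PH liver. Median centring gave Car13 -0.088 and Car4 0.12 in AAF/PH liver. Adding 16 before log2 gave Car5a -1.89 and Car9 0.38 in AAF/PH liver, Car13 0.084 in placebo foci and 0.16 in rapamycin foci, and Car4 0.32 in rapamycin foci. Array quality weights, a fit that stopped before it converged, gave Car13 0.17 in rapamycin foci against normal liver and -0.078 against placebo foci. Car12 in rapamycin against placebo foci ranged from -0.07 to 0.32, and Car9 from -0.01 to 0.29, over the alternatives.

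Counts of called genes moved by over 1.5 times in several settings. Array quality weights gave 7996 genes in AAF/PH liver and 6443 in placebo foci against normal liver, 2011 in placebo foci against AAF/PH liver, and 1 (Cyp17a1) in rapamycin against placebo foci. Fits of only the groups compared gave 5115 in AAF/PH liver, 2297 in placebo foci and 210 in rapamycin foci against normal liver, and 1334 in placebo foci against AAF/PH liver, where median centring gave 399 and quantile normalization 1040. The counts without these changes were 2900, 1192, 947 and 608. Leaving out 1 animal gave 1552 to 2717 in AAF/PH liver, 606 to 1106 in placebo foci and 224 to 2051 in rapamycin foci against normal liver, 330 to 448 in placebo foci against AAF/PH liver, and 0 to 3 in rapamycin against placebo foci. The lowest of these for all 3 comparisons with normal liver was without normal animal 1, and the 2051 was without rapamycin animal 2. The share of called genes that were higher was 19.97% after median centring in AAF/PH liver, beside 37.7%, and 10.0% in rapamycin foci, beside 24.5%. The replicate block gave 555 in rapamycin foci, 919 in placebo foci and 2279 in AAF/PH liver against normal liver, 429 in placebo foci against AAF/PH liver and 0 between the foci. There were 135 calls of list genes, each a gene in 1 comparison, so a gene can count several times. None reversed in 2159 alternative values, and 295 values lost the call. The cause of these changes was not tested. Intensities near the level of olfactory receptor genes limit what is said of Car4, Car9, Car12 and Car13.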
